A study of Penicillium oxalicum with 6 samples.

Results

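The genes described here form a set of abundant transcripts whose mean level differed little between 2 strains of the filamentous fungus Penicillium oxalicum. Members were chosen by measured values. A gene entered the set if it ranked in the top 200 by mean FPKM (reads scaled by gene length and library size, a level that can be compared between genes) in each strain and if its mean CPM (reads per 1000000 reads of the library) in one strain was within 1.5-fold of that in the other. A total of 32 of 9284 genes met the rule. Another 9 stretches of neighbouring identifiers were left out by the rule, but none of the 8 genes in them that ranked in the top 200 of both strains had a ratio within 1.5-fold, so this changed no member. The rule used the mean levels and the strain contrast, so both are given as a description, without a test. The spread between the libraries of a strain was not used.

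The series measured messenger RNA by sequencing in mycelium taken after 24 h in liquid medium with 1% Avicel, a microcrystalline cellulose. The strain MuPOX00158 lacks POX00158, which the submitters call a phosphokinase, and 3 libraries came from it. The comparison strain, labelled Ku70 or MuKu70, is a mutant of Ku70, a protein of DNA end joining that is often removed in fungi to ease gene targeting, and it also gave 3 libraries. The labels do not state whether MuPOX00158 was made in the Ku70 mutant, how many clones were used, or whether replicate libraries stem from different cultures.

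In a growing hypha a limited number of genes supply a large part of the messenger RNA. In fungi these commonly include genes for ribosomal proteins, translation factors, enzymes of central carbon metabolism, histones and proteins of the cell wall, and transcripts that keep a similar share between conditions are often sought as references for quantitative PCR. Fungi grown on cellulose add abundant transcripts of secreted cellulases and xylanases, whose level follows the carbon source and its regulators. The deposited tables hold identifiers without names or products, so which of these classes the 32 genes belong to is not given here and they are called by their identifiers.

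The library totals ran from 2983815 to 3259601 expected counts, over 8677 to 8750 listed genes. The deleted gene matched the labels in every library, with 1067, 569 and 763 reads in Ku70 replicates 1 to 3 and 4, 8 and 9 reads in MuPOX00158 replicates 1 to 3 (log2 fold change -6.87, SE 0.35, edgeR adjusted p = 5.04e-06). Each of the 32 genes had between 387 and 28864 reads in every library, with a median of 3728. Counting error alone would give an SD of 0.010 to 0.053 on the log2 scale at these depths, and it covers counting only. The median gene of the set had an observed SD within strains 9.25 times as large, and the ratio was below 1.5 in 1 gene, POX04610. None of the 32 genes had a fractional count, the sign of reads shared with a similar sequence, against 21 of 7757 tested genes. All values are shares of a library's RNA, and a bulk sample cannot tell fewer cells with a transcript from less transcript per cell.

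Genes lay closer to the lower bound of the ratio than to the upper one. Just inside were POX07201, POX08562 and POX04136, with mean CPM ratios of MuPOX00158 over Ku70 of 0.682, 0.692 and 0.712, and just outside were POX08622 and POX05956, at 0.664 and 0.659. On the upper side POX07832, POX02054 and POX01443 were just inside, at 1.35, 1.31 and 1.29, and POX08673 and POX01708 just outside, at 1.53 and 1.57. By rank, POX01336 entered at rank 200 in MuPOX00158 and POX03331 at 193, while POX05882 at rank 209 and POX06677 at 211 did not. In Ku70 the last members were POX07832 at rank 194 and POX00101 at rank 190, and POX04407 at rank 205 and POX01088 at rank 259 missed. Of 108 genes outside the stretches that ranked in the top 200 of both strains, 26 had a ratio below the lower bound and 50 a ratio above the upper one. How many genes count as near-equal is set by the bound, and a bound of 2 would take in 84 of the 108.

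**Figure D1:**
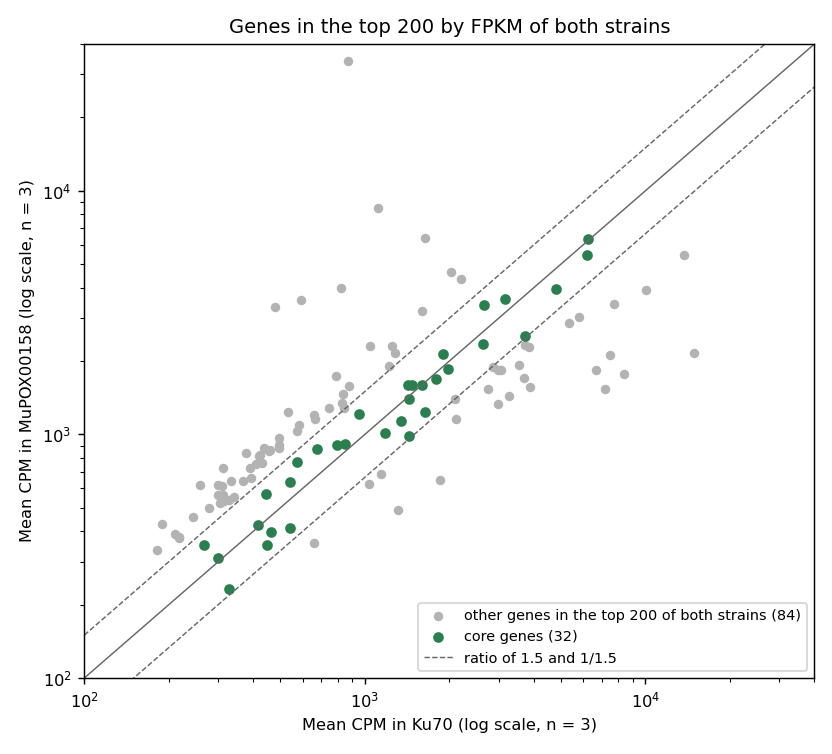
Mean CPM in MuPOX00158 against mean CPM in Ku70 (both axes logarithmic, n = 3 libraries each) for the 116 genes in the top 200 by FPKM of both strains. The 32 core genes (green) lie between the dashed lines at ratios of 1/1.5 and 1.5, and the other 84 genes (grey) lie outside them.

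The share of reads held by the 32 genes together was 5.07, 6.22 and 4.96% in Ku70 replicates 1, 2 and 3 and 5.36, 5.22 and 5.08% in MuPOX00158 replicates 1, 2 and 3. Ku70 replicate 2 stood above the other libraries, which lay close together, and the ranges of the strains overlapped. The mean over 3 libraries was 5.42 ± 0.695% (SD) for Ku70 and 5.22 ± 0.144% for MuPOX00158. POX06884 made up part of that excess. It alone took 0.901% of the reads in Ku70 replicate 2 and between 0.410 and 0.570% in the other 5 libraries, while the other 31 genes took 5.32% in Ku70 replicate 2 and 4.42 to 4.81% elsewhere.

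Levels in the set spanned a narrow range below 2 leading genes. POX06884, the gene with the highest level, had 4658, 10268 and 6250 FPKM in Ku70 replicates 1, 2 and 3 and 6275, 6522 and 5795 FPKM in the MuPOX00158 libraries. POX06702 followed with 3559, 5783 and 4913 FPKM in Ku70 and 4892, 4852 and 4788 FPKM in MuPOX00158. In both genes the MuPOX00158 libraries lay close together, inside the range of the Ku70 libraries. They ranked 7 and 17 in Ku70 and 8 and 13 in MuPOX00158, and no other member was in the top 20 of both strains. The next gene, POX07201, averaged 2572 ± 830 FPKM over the Ku70 libraries and 1752 ± 148 FPKM over those of MuPOX00158 (SD, n = 3). From there the mean of both strains went down to 885 FPKM in POX00101 without a gap. Of the 31 pairs of neighbours in the order of mean level, 30 had ranges over the 6 libraries that overlapped. The exception was POX06702 above POX07201. For the pairs that overlapped, these ranges do not establish the order, while genes further apart could be separate, such as POX07502 and POX07087. Ranges over libraries do not compare 2 genes within a library. Compared in that way, POX06884 was above POX06702 in each of the 6 libraries.

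**Figure D2:**
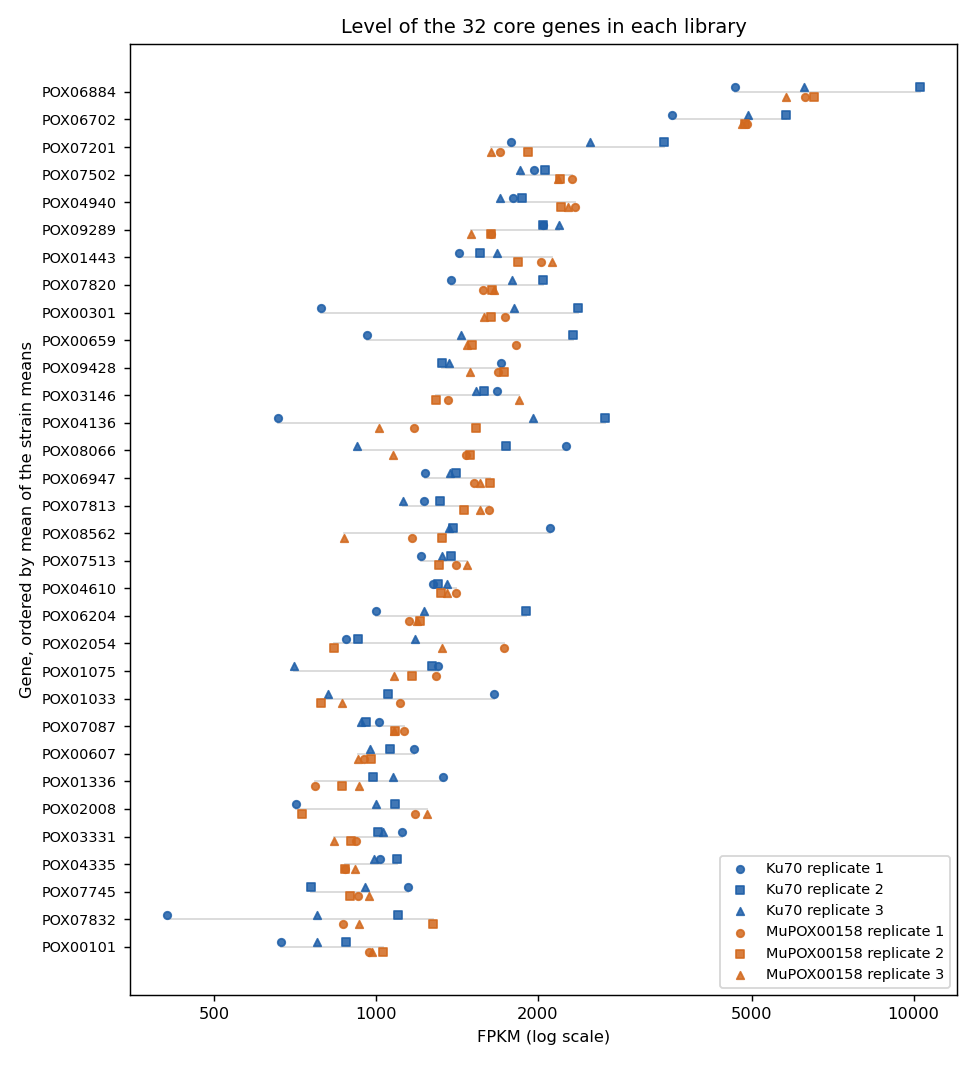
FPKM (log scale) of the 32 core genes in each of the 6 libraries, ordered by the mean of the strain means, with Ku70 in blue and MuPOX00158 in orange and 1 symbol per replicate number. The grey line joins the lowest and the highest library. POX06884 and POX06702 stand above the rest, and the lines of POX04136, POX07832 and POX00301 are the longest.

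A near-equal strain mean did not always mean an even level across libraries. The highest of the 6 libraries was within 1.5-fold of the lowest in 15 of the 32 genes (46.9%), and in 6 it was within 1.3-fold. In 10 genes it was more than 2-fold higher, and in the widest, POX04136, it was 4.06-fold higher. The other 7 genes lay between. The description as stable therefore holds for the strain means of all 32 genes, as the rule sets it, and for all 6 libraries within 1.5-fold in 15 of them. Among all 7757 tested genes 15.2% were within 1.5-fold over the 6 libraries, and among the other 84 genes abundant in both strains 0 were, which follows from their ratios outside the bounds. The range over the 6 libraries also contains the strain ratio that the rule bounds. Nothing is therefore read from the larger share among the 32 genes.

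Of the 6 genes within 1.3-fold, POX07502 stood at place 4 in the order of mean level. The others stood lower, from place 18 (POX07513) to place 29 (POX04335). POX04610 had 1279, 1308 and 1355 FPKM in Ku70 and 1410, 1322 and 1356 FPKM in MuPOX00158, a range of 1.10-fold over all libraries. Its libraries overlapped between the strains, and its spread was close to counting error. POX07087 had 1012, 959 and 940 FPKM in Ku70 and 1130, 1087 and 1082 FPKM in MuPOX00158. Here the strains did not overlap, and every MuPOX00158 library was the higher one. POX07513 had 1215, 1381 and 1326 FPKM in Ku70 and 1407, 1312 and 1477 FPKM in MuPOX00158, with overlap and a range of 1.22-fold. POX07502, a longer gene at a higher level, had 1966, 2061 and 1851 FPKM in Ku70 and 2312, 2198 and 2182 FPKM in MuPOX00158, also without overlap. All of these lay within 1.3-fold over the 6 libraries, as did POX00607, at 928 to 1176 FPKM, and POX04335. POX04335 had 1017, 1094 and 994 FPKM in Ku70 and 876, 878 and 914 FPKM in MuPOX00158. Its MuPOX00158 libraries were all below its Ku70 libraries.

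Another part of the set had tight values within each strain and a small offset between the strains. POX04940 had 1798, 1868 and 1701 FPKM in Ku70 and 2346, 2212 and 2277 FPKM in MuPOX00158. POX09289 showed the reverse, with 2042, 2049 and 2194 FPKM in Ku70 and 1637, 1638 and 1503 FPKM in MuPOX00158. POX01443 had 1431, 1560 and 1677 FPKM in Ku70 and 2030, 1840 and 2126 FPKM in MuPOX00158. In these 3 genes the spread within a strain was smaller than the offset, and no library of one strain reached the range of the other. Over the set, 12 of 32 genes (37.5%) had no overlap between the strains, 7 of them with the higher values in MuPOX00158 and 5 with the lower ones. The share over all tested genes was 51.1%. Since the rule bounds the ratio of the means, nothing is read from this difference. Overlap was judged on FPKM, without TMM, edgeR's rescaling of the libraries. By plain CPM 17 of the 32 genes had a ratio above 1, while under TMM 13 had a log2 fold change above 0.

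The widest genes owed their range mainly to the Ku70 libraries. POX04136 had 657, 2665 and 1961 FPKM in Ku70 replicates 1, 2 and 3 and 1176, 1533 and 1016 FPKM in MuPOX00158. POX00301 had 792, 2374 and 1808 FPKM in Ku70 and 1737, 1638 and 1590 FPKM in MuPOX00158, so that its strain means were almost equal, at 1658 ± 802 and 1655 ± 74.9 FPKM (SD, n = 3). POX07832 had 410, 1102 and 778 FPKM in Ku70 and 871, 1275 and 930 FPKM in MuPOX00158. In all 3 genes Ku70 replicate 1 was the lowest library of the 6, and the MuPOX00158 libraries overlapped those of Ku70. Taken by replicate number, MuPOX00158 was the higher strain in all 3 pairs of POX07832, although the ranges overlapped. That was also so in POX04610, and MuPOX00158 was the lower strain in all 3 pairs of POX07201 and POX00607. No label states that libraries are paired by replicate number. POX00659 had the same order of Ku70 libraries as POX04136, POX00301 and POX07832. It had 964, 2331 and 1439 FPKM in Ku70 and 1822, 1511 and 1479 FPKM in MuPOX00158. The means of such genes rest on libraries that differ, and the ratio of POX00301, 1.00, is an average over them. POX04136 is also the shortest gene of the set by its implied effective length, 187 bases, and had 387 to 1608 reads.

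A smaller group had its highest Ku70 value in replicate 1. POX08066 had 2255, 1749 and 922 FPKM in Ku70 replicates 1, 2 and 3 and 1471, 1499 and 1078 FPKM in MuPOX00158. POX01033 had 1657, 1053 and 813 FPKM in Ku70 and 1108, 791 and 867 FPKM in MuPOX00158. POX08562 had 2106, 1391 and 1367 FPKM in Ku70 and 1166, 1325 and 873 FPKM in MuPOX00158. In the first pair of genes the strains overlapped, and in POX08562 the lowest Ku70 library was just above the highest MuPOX00158 library. POX01336, at rank 117 in Ku70 and 200 in MuPOX00158 and with the largest change of rank in the set, had 1333, 987 and 1078 FPKM in Ku70 and 771, 866 and 931 FPKM in MuPOX00158, without overlap. In POX01075 it was Ku70 replicate 3 that stood apart, with 705 FPKM against 1304 and 1274 FPKM in replicates 1 and 2 and 1080 to 1294 FPKM in MuPOX00158. POX02054 differed from all of these in that MuPOX00158 was the uneven strain, with 1729, 837 and 1327 FPKM against 881, 925 and 1184 FPKM in Ku70.

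**Figure D3:**
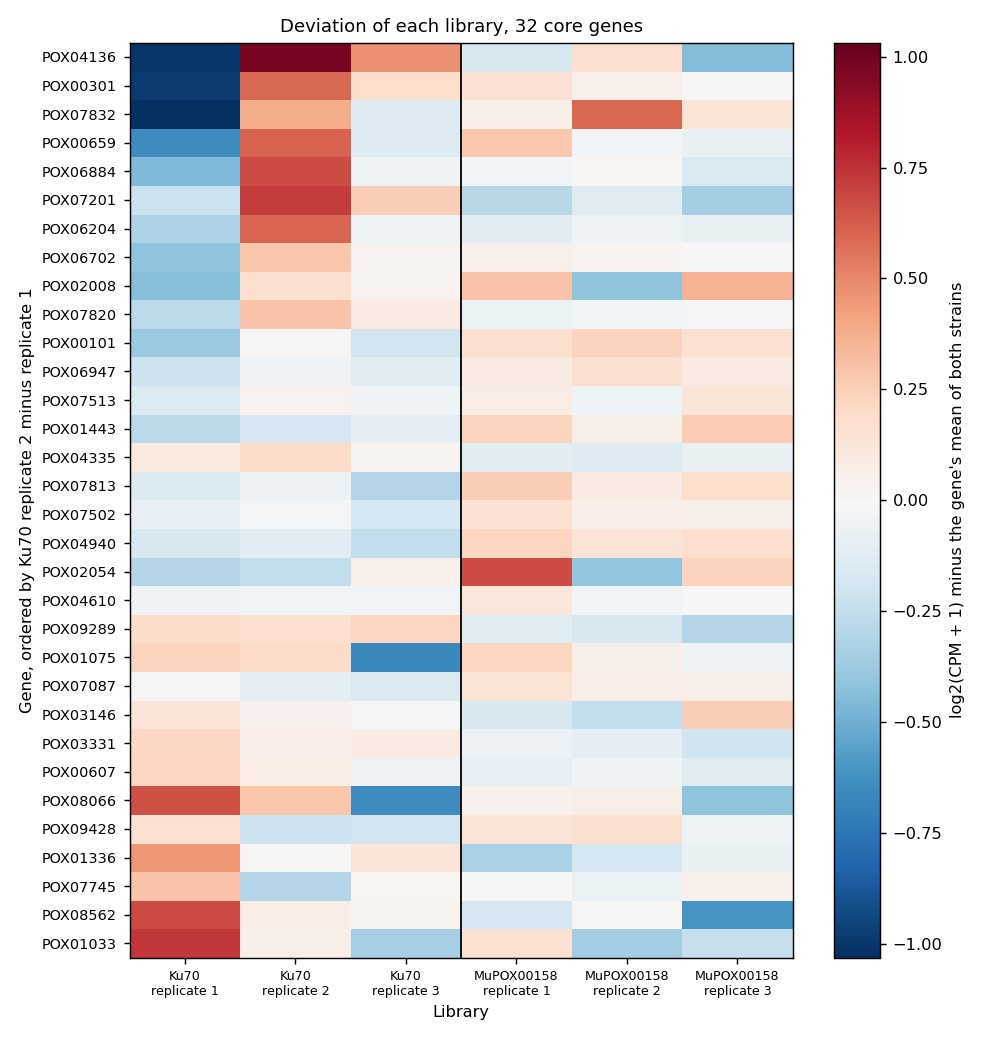
Deviation of log2(CPM + 1) in each library from the gene's mean of both strains (red higher, blue lower), for the 32 core genes ordered by Ku70 replicate 2 minus Ku70 replicate 1. Most of the strongest colours are in Ku70 replicate 1, blue in the genes at the top of the plot (POX04136, POX00301, POX07832). Toward the bottom this library is red, most strongly in POX01033, POX08562 and POX08066, which are not all the lowest rows.

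Across the set the Ku70 libraries varied more than the MuPOX00158 libraries. The SD of log2(CPM + 1) over 3 libraries had a median of 0.216 in Ku70 and of 0.0881 in MuPOX00158, and it was larger in Ku70 in 26 of 32 genes (81.3%). Over all tested genes the medians were 0.288 and 0.192, and 67.3% of genes had the larger SD in Ku70. For the other 84 genes abundant in both strains the medians were 0.395 and 0.111. The Ku70 libraries did not share this spread evenly. In 14 of the 32 genes, and in 49.5% of all tested genes, the Ku70 libraries spanned more than 1.5-fold. Among the 14, replicate 1 was the lowest of the 3 in 9 and the highest in 5. Replicate 2 was the lowest or the highest in 10 of the 14 and replicate 3 in 4. Where Ku70 spanned more than 1.5-fold among all tested genes, these shares were 81.5% for replicate 1, 75.2% for replicate 2 and 43.3% for replicate 3, and since each gene has a lowest and a highest library, libraries that behaved alike would each reach a large share. Without Ku70 replicate 1 the median SD in Ku70 was 0.131, against 0.212 without replicate 2 and 0.261 without replicate 3, and 21 genes were within 1.5-fold over the remaining libraries. MuPOX00158 spanned more than 1.5-fold in 4 genes, POX04136, POX08562, POX02054 and POX02008, and replicate 2 was the highest or lowest in each. Among all tested genes 27.5% spanned that far in MuPOX00158, and replicate 2 was the highest or lowest in 81.8% of those. These are descriptions of the libraries, without a test.

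**Figure D4:**
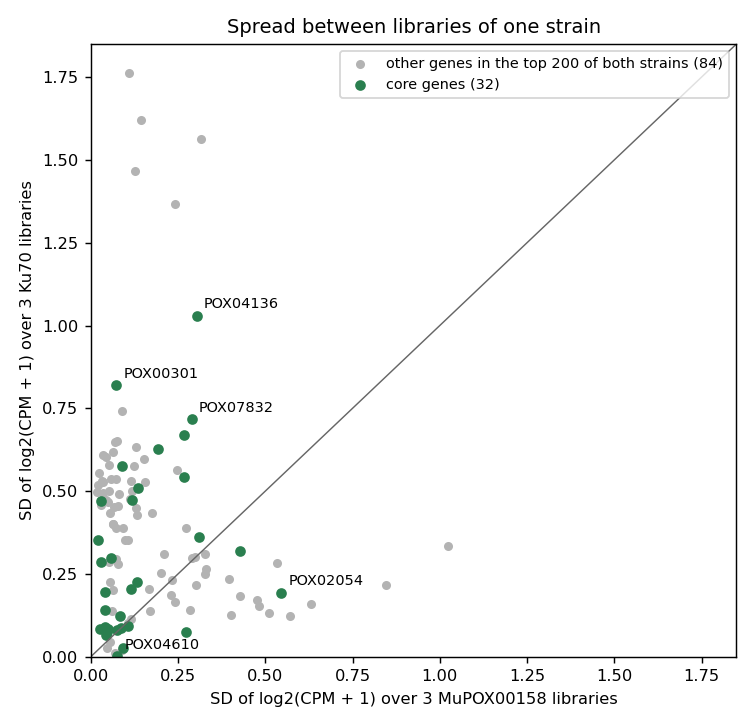
SD of log2(CPM + 1) over the 3 Ku70 libraries against the SD over the 3 MuPOX00158 libraries, for the 32 core genes (green) and the other 84 genes abundant in both strains (grey). Points above the line varied more in Ku70, as did 26 of the 32 core genes. POX04610 lies near the origin, and POX02054 lies to the right of the line.

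The rule bounds the ratio of plain CPM, and the fitted difference under TMM scaling stayed within 1.5-fold in all members but POX07201, POX08562 and POX04136, whose log2 fold changes were -0.65, -0.60 and -0.59. In edgeR's quasi-likelihood test fitted across 7757 genes, 0 of the 32 genes had an adjusted p below 0.05, against 37.2% of all tested genes. An unadjusted p below 0.05 was found in 2 of the 32, POX09289 and POX01336, and in 3698 of the 7757. DESeq2 called these same 2 genes lower in MuPOX00158, beside 2980 of 8741 tested genes called in either direction. With limma on log2(FPKM + 1), 0 of the 32 were called, beside 2810 of 7757 tested genes. The rule used this contrast, so nothing is read from these counts. Log2 fold changes (MuPOX00158 over Ku70) ran from -0.65 in POX07201 to 0.33 in POX07832, with a median of -0.08, and the median over all tested genes was 0.00. Their SE ran from 0.15 to 0.47. The sign of 4 members near 0, POX00301, POX00659, POX04610 and POX06702, changed when library totals replaced the TMM scaling.

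The intervals show the precision of these differences and, since the rule bounds the same contrast at 1.5-fold, are a description only. The 95% interval of the fold change lay within 1.5-fold either way in 5 of the 32 genes, and in 14.6% of all tested genes, so the share is near that background and is no result about the set. The 5 genes were POX04610 (log2 fold change -0.02, interval -0.37 to 0.33), POX07513 (0.02, -0.41 to 0.44), POX07087 (0.10, -0.30 to 0.51), POX06947 (0.15, -0.25 to 0.56) and POX09428 (0.09, -0.40 to 0.57). For POX00301, with nearly equal means, the interval ran from -1.01 to 0.82, and for POX06884 from -1.15 to 0.58. Without Ku70 replicate 1, edgeR called 3 of the 32 genes lower in MuPOX00158, POX04136, POX07201 and POX09289. In that fit 3323 of 7835 tested genes were called, 1707 of them lower. POX04136 and POX07201 then no longer met the rule.

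**Figure D5:**
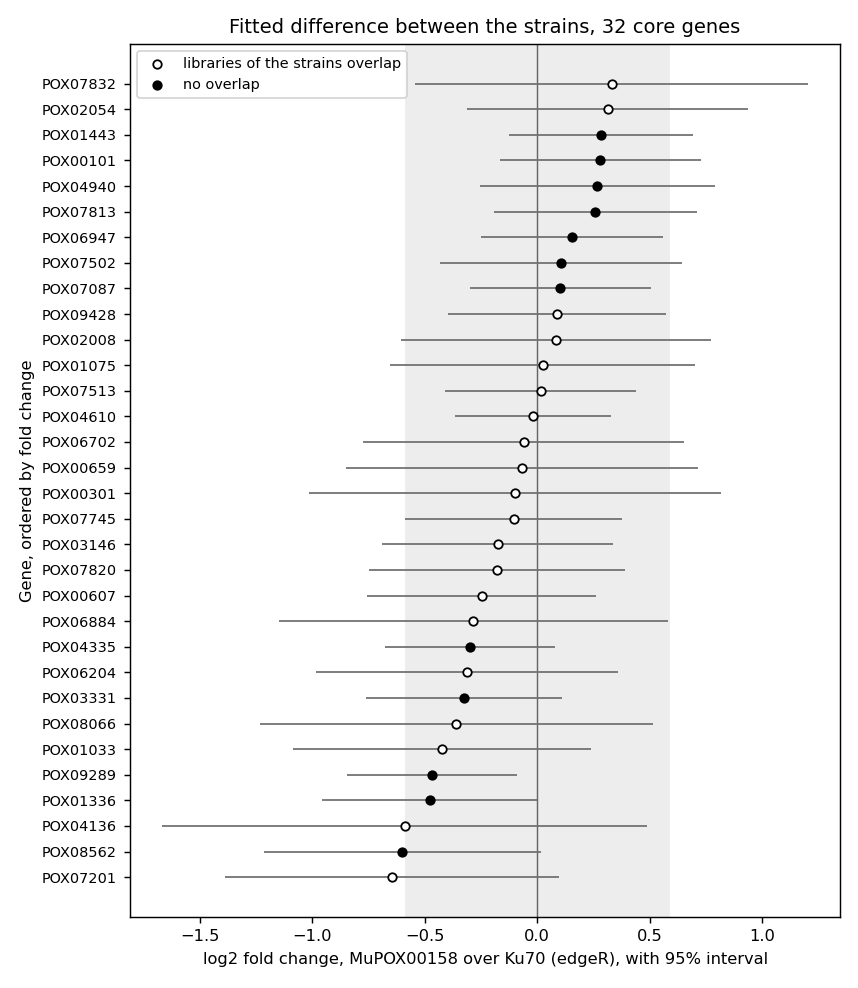
edgeR log2 fold change (MuPOX00158 over Ku70) with its 95% interval for the 32 core genes. The grey band marks 1.5-fold either way, filled points are the 12 genes whose libraries did not overlap between the strains, and open points are the other 20. Only 5 intervals lie inside the band.

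The effective length implied by the deposited counts and FPKM values, which is shorter than the transcript, ranged from 187 bases in POX04136 to 2919 bases in POX08066, with a median of 879 bases. POX04610, the most even gene, had the second shortest, 228 bases, and POX00607 the second longest, 2469 bases. The median was 1262 bases over all tested genes and 530 bases over the other 84 genes abundant in both strains. In 9 of the 32 genes (28.1%) it was under 500 bases, against 11.1% of all tested genes. Ranks by FPKM favour short genes over ranks by reads, and this length entered the rule. Ranking by CPM instead kept 21 of the 32 genes in a set of 43. The identifiers were scattered from POX00101 to POX09428, with no 2 members consecutive and the closest pair, POX07813 and POX07820, 7 apart.

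None of the recalled enzyme genes was a member. The lists, taken over from an earlier report on these data, rest on memory of the literature and hold 8 xylanases, 10 cellulases, 3 amylases, 7 beta-glucosidases and 2 regulators. Of these 30 identifiers, 29 were listed and 12 were in the top 200 of Ku70, but 5 were in that of MuPOX00158. Those 5 were abundant in both strains and were kept out by their ratio. They were the cellulase genes POX04786, POX05587 and POX01166, whose class of enzymes breaks down cellulose, the beta-glucosidase gene POX06079, whose product splits cellobiose, and the xylanase gene POX08484. In the edgeR fit 20 of the 29 fell in MuPOX00158 and 2 rose, beside 18.6% of all tested genes in each direction. Among the 5 genes abundant in both strains, POX06079 came closest to the bound, at a ratio of 0.541.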

How the data were processed

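Messenger RNA was sequenced in 3 MuPOX00158 and 3 Ku70 libraries, grouped by the strain label. Per the file headers the authors deposited an expected count and an FPKM value per gene and library. The submitters' processing notes list Bowtie2 2.1.0, RSEM 1.2.12, DESeq2 and BWA 0.7.10-r789 without roles. The build, annotation and strandedness were not given in the sources used here. No gene is listed at 0, so a gene missing from a library was taken as having no read. CPM is the expected count over the library total. Ranks used mean FPKM over 3 libraries. Expected counts were rounded and fitted with edgeR 4.0.16 (R 4.3.3; filterByExpr with a minimum count of 10 and total of 15, TMM, quasi-likelihood test, Benjamini-Hochberg adjustment at 0.05). The fit was also run on simulated counts with independent libraries and few changed genes. These settings differ from the deposited data, so nothing about the deposited libraries is read from that run. The SE is the log2 fold change over the square root of F. DESeq2 1.42.0, limma 3.58.1 on log2(FPKM + 1) and log2(FPKM + 0.1), other scalings, filters and rule bounds, and each library left out were alternatives.

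Replicate numbers follow the order of deposition and the letters F, S and T in the titles. Over tested genes, deviations from the strain means of libraries with the same letter correlated at 0.152, 0.217 and 0.163, and those with other letters between -0.177 and 0.030. For each gene the deviations within a strain cancel out, so the other-letter values are not independent of the same-letter ones. The letter was also fitted as a block. The labels do not say whether replicate libraries stem from different cultures, so p-values rest on differences among libraries that may be technical replicates. No 2 libraries of a strain agreed within sampling noise. A RefSeq table (ASM172317v3) holds no symbol beyond locus tags and matched 0 identifiers, and its lengths did not follow those of the files by number (Spearman correlation 0.01 over 3737 genes), so no names, positions or sequences are given. The members and lists were chosen with earlier results of these data known. The named genes are POX00158, the 10 members with the highest level, and those with the lowest and highest spread, ratio, rank change, length and p, and the genes at the bounds; others named with values (POX07513, POX04335, POX08066, POX06947, POX09428, POX01075 and POX02008 among them) were added after their values were seen.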

Additional observations from a re-analysis of the deposited data

How the results depend on the processing

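The set depends on its bounds. It held 13 genes with the top 100, 99 with the top 400 in place of the top 200, 20 with the narrower ratio bound and 84 with a bound of 2. It held 31 genes with TMM-scaled CPM (29 shared), 32 with FPKM ratios (all shared), 34 with medians over libraries (31 shared) and 32 with the identifier stretches kept. Leaving out 1 library gave 28 to 47 genes, and 25 of the 32 met the rule in each of these 6 settings. The count of members called, 0 in edgeR as described, was 2 with DESeq2 (POX01336 and POX09289), 1 with a mean of at least 10 CPM (POX09289), and 0 to 3 with 1 library left out; it was 0 with the letter as a replicate block, with plain library sizes, with upper-quartile scaling, without a filter and in the 3 limma fits. The count over all genes was 2888 of 7757 tested. Under the other tools, filters and scalings it was 2599 to 2980, with 6909 to 9284 genes tested, and 2909 under the block. Leaving out 1 library gave 1984 (without MuPOX00158 replicate 3) to 3323 of 7835 tested (without Ku70 replicate 1). The count of enzyme-list genes lower in MuPOX00158, otherwise 20, was 19 under the block, 19 with plain library sizes and 16 to 21 with 1 library left out. The members' share of reads was 4.67% in Ku70 and 4.52% in MuPOX00158 without the 10 genes with the most reads in either strain. Members among those genes were dropped as well, so these values are for part of the set. As a share of summed FPKM, all 32 members held 5.70% in Ku70 and 5.02% in MuPOX00158. This is a wider gap than that of 5.42 and 5.22% of reads. With 1 library left out the share of reads was 5.02 to 5.64% in Ku70 and 5.15 to 5.29% in MuPOX00158. The median SD in MuPOX00158 was 0.0995 with TMM-scaled CPM and 0.0610 to 0.0762 with 1 library left out, and that in Ku70 was 0.131 to 0.261. With 1 library left out, 15 to 21 members were within 1.5-fold over the rest, and 20 to 26 had the larger SD in Ku70; these settings were chosen after seeing the data. The causes were not tested. For the 32 core genes, POX00158, 8 genes just outside the bounds and 5 enzyme genes, 690 comparisons with alternatives were made. In the core genes 474 kept their side of the threshold and 6 gained a call. In the others, 16 gained and 7 lost one, and 0 calls changed sign.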

Other observations

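Above the upper bound of the ratio lay a group of genes, many of them short, with a median ratio of 1.81. A total of 39 genes in the top 200 of both strains and outside the identifier stretches had a mean CPM ratio of MuPOX00158 over Ku70 over 1.5 and up to 2, against 13 genes from 1/2 to under 1/1.5. The median implied effective length of the 39 genes was 408 bases, and 23 of them were under 500 bases. Their median level was 588, 1202 and 930 FPKM in Ku70 replicates 1, 2 and 3 and 1608, 1621 and 1658 FPKM in MuPOX00158 replicates 1, 2 and 3. Ku70 replicate 1 was the lowest Ku70 library in 31 of the 39 and Ku70 replicate 2 the highest in 32, and both held in 31. In the 32 core genes each held in 17, and both in 13. Over all tested genes Ku70 replicate 1 was the lowest Ku70 library in 32.4%, and Ku70 replicate 2 was the highest in 23.2%. The share of all tested genes with both was not counted. All 39 had every MuPOX00158 library above every Ku70 library, a direction that the choice by ratio favours, and 13 were called higher by edgeR (adjusted p below 0.05). Over all tested genes 51.1% had no overlap and 18.6% were called higher, and since the 39 genes were chosen by this ratio nothing is read from their counts. The products of these genes are not named in the files, and why many of them share this order of Ku70 libraries was not tested. By plain CPM, the upper bound of 1.5 fell in a gap between the core, which ended at 1.35, and this group, which began at 1.53. Under TMM scaling the log2 fold changes of POX08673 and POX01708, in this group, were 0.53 and 0.57. Both are within 1.5-fold, so the place of the gap depends on the scaling.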
